A study of Saccharomyces cerevisiae with 6 samples.

Results

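The cln3 deletion strain of Saccharomyces cerevisiae was set against 3 wild-type polyploid strains, a diploid, a triploid and a tetraploid, by genomic run-on. The strains were taken from the sample titles, and 12 of the 18 run-on arrays of the study belong to them, 3 of the cln3 deletion and 9 of the polyploids. The polyploids are named PY4993 (2 chromosome sets), PY4997 (3 sets) and PY4996 (4 sets). The remaining 6 arrays, 3 of the haploid wild type BY4741 and 3 of a whi5 deletion strain, served to tell which side departs. The growth label of every strain gives exponential cultures in YPD, a rich medium. For the cln3 deletion the source label instead names wild-type cells with KCl at 0.6 M in the medium, while the strain entry, the title and the description all name the mutant. The title was followed, and if the KCl label is right, salt and the deletion cannot be told apart. Nor can ploidy be told apart from other differences between the PY strains and BY4741, whose relation the labels do not give. The deletion itself was not checked on CLN3, because the files give each spot by its place on the membrane and pair no spot with a gene.

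Cln3 is a G1 cyclin. With the kinase Cdc28 it opposes Whi5, a repressor of the transcription factor SBF, and so promotes the passage through Start, the point in G1 at which a budding yeast cell commits to division. Cells without CLN3 pass Start late and grow large, cells without WHI5 pass it early and stay small, and cell volume also rises with the number of chromosome sets. The cln3 deletion and the polyploids are thus both known for large cells, although cell volume is not in the files and the labels do not give the ploidy of the deletion strain. Genomic run-on labels the transcripts of RNA polymerases already engaged on genes: cells are permeabilised with sarkosyl and extend their transcripts with 33P-UTP. The signal at a spot, which carries a whole open reading frame, follows the number of transcribing polymerases on it.

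Each array held 6144 spots, in 16 rows and 24 columns of blocks with 16 positions each. A spot is written here as R2_C6_9 for block row 2, block column 6 and position 9. The value used for a spot is its background-subtracted run-on signal over the genomic DNA signal of the same membrane, as log2, centred on the median of the array. S/N, the deposited signal over background, was at least 2 for 76.5% to 79.0% of spots on the cln3 deletion arrays, against 74.3% to 83.7% on the polyploid arrays. Nothing in the labels ties the 3 arrays of a strain to separate cultures, and the p-values below reflect only the scatter among these arrays, which may be technical. The number of arrays, 3 for the cln3 deletion, limits the precision: the median standard error (SE) of the difference between the cln3 deletion and the polyploids was 0.21.

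The arrays separated first by run-on number and then by strain. On the first principal component of 5845 spots, which held 22.6% of the variance, the run-on 1 arrays of all 6 strains lay between 15.5 and 26.3 and the other 12 arrays between -17 and -2.8. On the second, with 16.6%, the cln3 deletion arrays lay at 10.1, 10.7 and 7.3, against -23.2 to 1.7 for the polyploids. There the cln3 deletion lay among the haploid and whi5 deletion arrays (3.9 to 18.6), and no polyploid array reached them. The run-on 1 arrays stand apart in every strain, and the counts of calls and of sides are given with and without them.

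**Figure D1:**
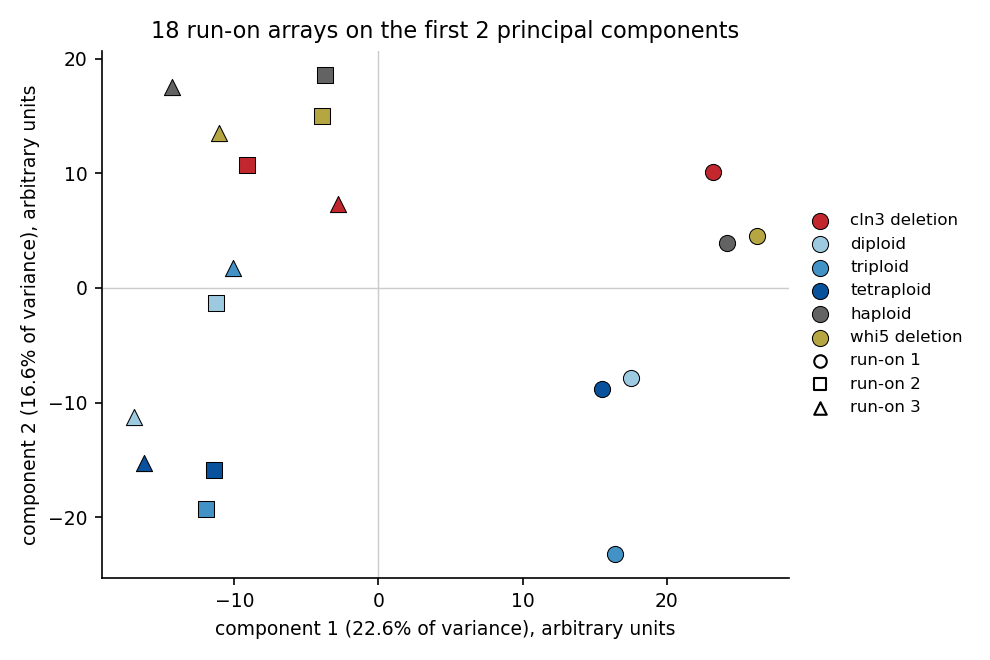
The 18 run-on arrays are placed by their first component (horizontal axis) and second component (vertical axis), in arbitrary units, with colour for strain and shape for run-on number. The run-on 1 arrays of all strains form the right-hand group, and within both groups the cln3 deletion lies above the polyploids.

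The level of the whole array overlapped between the cln3 deletion and the polyploids. The median log2 ratio before centring was -0.04, 0.76 and 0.86 on the cln3 deletion arrays, a mean of 0.53 ± 0.49 (SD, n = 3). On the polyploid arrays it ran from 0.21 to 1.97 with a median of 1.04, and a mean of 0.95 ± 0.55 (SD, n = 9). The difference of -0.42 gave p = 0.255 in a two-sided exact permutation test, whose smallest possible p is 0.0091. Exposure and labelled input per membrane are not known here, and all later values are relative to the other spots of the same array.

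The main comparison asked which spots separate large mutant cells from cells with more chromosome sets. The cln3 deletion differed from the polyploids at 158 of 5934 tested spots, 2.66% (limma, Benjamini-Hochberg adjusted p under 0.05). Most were higher in the cln3 deletion: 129 spots (2.17% of those tested) were higher and 29 (0.489%) were lower. The higher spots had a median log2 difference of 1.23 (0.49 to 9.72) and the lower ones of -1.19 (-7.62 to -0.59), against -0.46 to 0.70 between percentiles 5 and 95 of all tested spots. Both extremes come from spots with S/N under 2 on every array of 1 side, where a fitted value is no bound. At 103 higher and 19 lower spots each side had at least 1 array with S/N of at least 2, and these count as measured. Their medians were 1.07 (0.49 to 4.30) and -1.19 (-1.76 to -0.60). S/N reached 2 on all 12 arrays at only 61 higher and 17 lower spots. With 16 and 6 further spots at their bound the medians were 1.14 and -1.19. Counting measured spots and bounds alone, the difference was at least 1 on the log2 scale at 73 higher and 14 lower spots, and at least 2 at 25 higher spots and 1 lower spot. The 3 cln3 deletion values lay wholly outside the 9 polyploid values at 150 of the 158 spots, and at 305 of all 5934 tested spots (5.14%).

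These counts rested on the number of cln3 deletion arrays and on how membranes and run-on number were treated. Without cln3 deletion replicate 2 there were 89 calls, 78 higher and 11 lower, and without replicate 3 there were 102, 85 higher and 17 lower. Only membrane 13 carried both a cln3 deletion and a polyploid array. With a fixed block for membrane 61 spots were called, 58 higher and 3 lower, of which 59 were among the 158. On the run-on 2 and 3 arrays alone 166 spots were called, 138 higher and 28 lower, 117 of them among the 158. A replicate block for run-on number raised the count of calls, as given further below with the other processing choices.

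The 158 spots were called on the mean of the 3 polyploids, which favours a shared direction, and the polyploids are given one by one as a description. Taken so, the diploid, the triploid and the tetraploid each lay below the cln3 deletion at 129 of the 129 higher spots, with median log2 differences (cln3 deletion minus polyploid) of 1.17, 1.22 and 1.22. At the 29 lower spots each lay above it, with medians of -1.15, -1.04 and -1.28. A test between the 3 polyploids called 0 of 5935 spots (limma, lowest adjusted p = 1), and 76 spots (1.28%) had an unadjusted p under 0.05. Of the 158 spots 10 (6.33%) had one. Over all tested spots the share is below the 0.05 that strains without differences would give on average, so the test was conservative. Its 0 calls do not show that the 3 polyploids are alike. When blocks for membrane and for run-on number were fitted together, the test called 8 spots.

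Which side departs was read from 2 further comparisons, each against the mean of the haploid and whi5 deletion strains, which both share. The cln3 deletion differed from them at 106 of 5932 spots (1.79%), with 66 higher (1.11%) and 40 lower (0.674%). The polyploids differed from them at 202 of 5932 spots (3.41%), with 47 higher (0.792%) and 155 lower (2.61%). The share of higher calls among the polyploid differences was 23.3%, and 34.2% after quantile normalisation, with 63 higher and 121 lower. It was 9.09% with the haploid alone as reference (9 higher, 90 lower) and 18.5% with the whi5 deletion alone (20 higher, 88 lower). Without haploid replicate 3 or whi5 deletion replicate 3 there were 18 higher calls. The 2 comparisons are not equally sharp, with a median SE of 0.22 for the cln3 deletion and 0.17 for the polyploids, so the numbers of spots on the 2 sides cannot be set against each other directly. A call on only 1 side is also no test that the other side did not move. Leaving out single arrays lowered the cln3 deletion count to 68, 46 and 53 (without its replicates 1, 2 and 3) and to 66, 68 and 66 (without haploid replicate 3 and whi5 deletion replicates 2 and 3). The polyploid count fell to 123, 132 and 127 without the same haploid and whi5 deletion arrays. Under a fixed block for membrane the counts were 59 and 123, and on the run-on 2 and 3 arrays alone 93 and 168.

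Of the 158 spots that separate the cln3 deletion from the polyploids, 46 had a call only for the cln3 deletion, 67 only for the polyploids, 6 for both and 39 for neither. Among the 129 higher spots these counts were 42, 56, 5 and 26 in the same order, and among the 29 lower spots they were 4, 11, 1 and 13. All 56 higher spots of the polyploid side were spots at which the polyploids lay below the reference strains. The 42 higher spots of the cln3 deletion side had a median log2 difference from the reference strains of 1.16 in the cln3 deletion, against -0.07, -0.13 and -0.06 in diploid, triploid and tetraploid. The 56 higher spots of the polyploid side had medians of 0.15 in the cln3 deletion, against -1.06, -1.20 and -1.18 in diploid, triploid and tetraploid. These medians describe spots chosen by the same values and carry no test.

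The sizes of the 2 sides depended on the reference and on the blocks. With a fixed block for membrane 23 spots fell on the cln3 deletion side and 32 on the polyploid side. With the haploid alone as reference 18 fell on the cln3 deletion side, and without cln3 deletion replicates 1, 2 or 3 there were 26, 21 and 22. Without haploid replicate 3 there were 30. With the cln3 deletion set against the haploid and the polyploids against the whi5 deletion, so that no reference array served both, 17 fell on the cln3 deletion side, all of them among the 46. On the run-on 2 and 3 arrays alone the sides held 44 and 57 spots, 22 and 46 of which were on the same side in the full set.

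**Figure D2:**
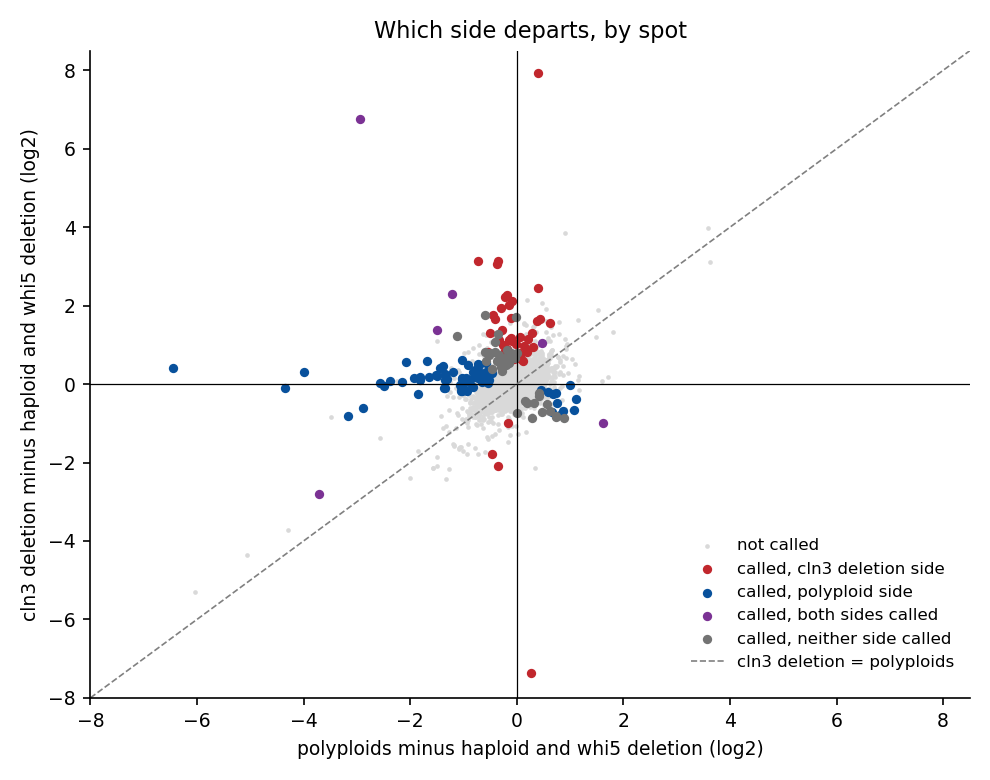
Each point is a tested spot, with the log2 difference of the polyploids from the haploid and whi5 deletion strains on the horizontal axis and that of the cln3 deletion on the vertical axis. Coloured points are the 158 called spots: those of the cln3 deletion side lie along the vertical axis, mostly above 0, and those of the polyploid side along the horizontal axis, mostly left of 0. Both axes share the same reference arrays, and the dashed line marks equal levels in the cln3 deletion and the polyploids.

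The 2 named higher spots of the cln3 deletion side were high in that strain, while all other strains overlapped. Of its 42 higher spots, 18 met the rule for naming, which asked for no overlap, S/N of at least 2 on every array of the higher group and on genomic DNA of all 7 membranes. At R2_C6_9, the largest of them, the centred log2 ratio was 2.51, 2.16 and 2.22 on the cln3 deletion arrays. On the 9 polyploid arrays it ran from -0.55 to 0.32 with a median of -0.24, and on the 6 haploid and whi5 deletion arrays from -0.20 to 0.26. All 3 cln3 deletion arrays were far above the other 15, which overlapped freely. The log2 difference was 2.46 (SE 0.19) against the polyploids and 2.27 against the reference strains (adjusted p = 6.8e-07 and 8.2e-06). The polyploids differed from the reference strains by -0.19 (adjusted p = 0.65).

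R12_C9_2 followed the same pattern from a lower level. It measured 0.37, 0.83 and 1.09 on the cln3 deletion arrays, against -2.46 to -1.29 on the polyploid arrays (median -1.49) and -2.02 to -0.88 on the reference arrays. No other array reached the cln3 deletion values, and in every strain but the haploid the run-on 1 array read lowest. The log2 difference from the polyploids was 2.43 (SE 0.28, adjusted p = 3.9e-05) and from the reference strains 2.21 (adjusted p = 0.00047). Under a fixed block for membrane the first was 2.46 with an adjusted p of 0.051, which ended the call.

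At the 2 named higher spots of the polyploid side all 9 polyploid arrays were low. At R10_C4_3 the log2 ratio was 0.51, 1.63 and 1.32 on the cln3 deletion arrays, against -3.90 to -2.55 on the polyploid arrays (median -3.14). The reference arrays read 0.03 to 1.33. The cln3 deletion and reference values overlapped, and the lowest of them was more than 2 units above the highest polyploid value. The log2 difference was 4.30 (SE 0.28, adjusted p = 1.1e-07) between the cln3 deletion and the polyploids, 0.31 (adjusted p = 0.89) between the cln3 deletion and the reference strains, and -4.00 (adjusted p = 9.8e-09) between the polyploids and the reference strains. The background-subtracted run-on signal was 102.314 to 497.667 in the cln3 deletion and 7.786 to 32.84 in the polyploids, where S/N reached 2 on 7 of 9 arrays.

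R10_C18_15 was measured well above background in every strain. It read 2.30, 2.16 and 1.88 on the cln3 deletion arrays, against -0.95 to 0.26 on the polyploid arrays (median -0.59) and 1.73 to 2.34 on the reference arrays. The cln3 deletion, haploid and whi5 deletion arrays overlapped there, and no polyploid array came near them. The log2 difference between the cln3 deletion and the polyploids was 2.60 (SE 0.23, adjusted p = 2.4e-06). That between the cln3 deletion and the reference strains was 0.03 (adjusted p = 0.99), and that between the polyploids and the reference strains -2.57 (adjusted p = 1.9e-07). For both of these spots the 3 differences stayed on the same side of the threshold in all 17 or 18 alternative settings and in each fit without 1 array.

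Spots lower in the cln3 deletion were fewer and their side less certain. The 11 of the polyploid side had median differences of -0.39 for the cln3 deletion and 0.76 for the polyploids from the reference strains, so that the reference strains lay between them. At R3_C16_8 the log2 ratio was -2.87, -3.95 and -3.89 on the cln3 deletion arrays, against -2.45 to -1.65 on the polyploid arrays (median -1.79) and -3.00 to -2.30 on the reference arrays. No cln3 deletion value reached the polyploids, and the run-on 1 value fell among the reference arrays. The log2 difference was -1.59 (SE 0.24, adjusted p = 0.00079) from the polyploids and -0.78 (adjusted p = 0.22) from the reference strains, and the polyploids differed from the reference strains by 0.81 (adjusted p = 0.027). A fixed block for membrane ended the first call (-1.21, adjusted p = 0.28). The polyploid call was lost without haploid replicate 2 or 3, whi5 deletion replicate 2 or 3, or tetraploid replicate 2 (adjusted p = 0.059 to 0.081).

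R11_C14_5 resembled it, with -3.37, -4.71 and -4.36 on the cln3 deletion arrays, against -3.03 to -2.12 on the polyploid arrays (median -2.52) and -3.85 to -2.95 on the reference arrays. The run-on 1 array of every strain was its highest. The log2 difference from the polyploids was -1.56 (SE 0.28, adjusted p = 0.0031). It was -0.69 (adjusted p = 0.43) between the cln3 deletion and the reference strains and 0.87 (adjusted p = 0.038) between the polyploids and the reference strains. The first call ended under a fixed block for membrane (-1.31, adjusted p = 0.29) and without cln3 deletion replicate 2 (-1.27, adjusted p = 0.051). The polyploid call was lost in 10 of 15 fits without 1 array, with adjusted p up to 0.12, so this spot's side is weakly placed. Genomic DNA signal, the divisor, was high at both spots: 1657.211 to 4609.498 at R3_C16_8 and 648.092 to 2180.221 at R11_C14_5. The median over all tested spots was 49.6. Next to them R3_C17_8, R3_C18_8 and R11_C13_5 were called too (log2 difference -1.37, -1.57 and -1.54). Whether such neighbours are separate cases was not tested.

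On the cln3 deletion side 4 spots were lower, and 1 of them, R11_C19_1, met the rule for naming. It read -1.58, -2.49 and -1.79 on the cln3 deletion arrays, against -1.45 to -0.59 on the polyploid arrays (median -1.24) and -1.30 to -0.74 on the reference arrays. The nearest values of the cln3 deletion and the polyploids were -1.58 and -1.45, so the groups barely separate. The log2 difference from the polyploids was -0.80 (SE 0.20, adjusted p = 0.04) and from the reference strains -0.98 (adjusted p = 0.026). The first call was lost in 8 of 12 fits without 1 array, and with cln3 deletion replicate 2 left out the difference was -0.53 (adjusted p = 0.36). The second, which sets its side, was lost in 6 of 9 such fits (adjusted p up to 0.23) and in 6 of 18 other settings. The first was also lost without division by genomic DNA and under a fixed block for membrane (adjusted p = 0.28 and 0.43).

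The largest fall was at R14_C1_5, which the rule did not name because genomic DNA reached S/N 2 on only 4 of 7 membranes, and which was chosen after its values were seen. Its background-subtracted run-on signal was 0, 0 and 0.873 on the cln3 deletion arrays, against 122.657 to 371.776 on the polyploid arrays and 86.271 to 284.647 on the reference arrays. S/N was under 2 on every cln3 deletion array and at least 2 on all 15 others, the only spot with that pattern. Each dim array was set to the lowest signal that reached S/N 2 anywhere on it. On that floor the cln3 deletion level was at least 7.7-fold lower than the polyploid level. It was at least 6.4-fold lower than that of the reference strains. Here and below, "at least" holds for that floor only, since noise at a spot can put its own limit higher. The fitted differences were called, but only 1 cln3 deletion value, itself with S/N under 2, entered that fit. With signals of 0 raised to a floor, so that all 3 entered, both fitted differences were called as well. The calls belong to the fitted differences and not to these bounds.

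The opposite pattern, S/N of at least 2 on all 3 cln3 deletion arrays and on no other array, was found at 4 spots: R3_C2_8, R16_C19_11, R14_C8_6 and R15_C1_6. All 4 were called higher in the cln3 deletion than in the polyploids, and at none did genomic DNA reach S/N 2 on all 7 membranes. It did so on 6 membranes at R3_C2_8, on 3 at R16_C19_11 and on 0 at R14_C8_6 and R15_C1_6. The divisor of those ratios is thus itself weakly measured. The last 3 were at least 23-fold, 4.8-fold and 7.4-fold higher in the cln3 deletion than in the polyploids, in that order. They too were chosen after their values were seen. At R3_C2_8 the run-on signal was 193.879, 188.544 and 335.29 on the cln3 deletion arrays, against at most 2.516 on the polyploid arrays and at most 7.242 on the reference arrays. The cln3 deletion level was at least 29-fold higher than the polyploid level (adjusted p of the fitted difference = 1.7e-06). It was at least 20-fold higher than that of the reference strains (adjusted p of the fitted difference = 0.00012). A polyploid signal of 2.516 had an S/N of only 0.1 at this spot. Its own limit can thus lie above the floor of the array, which would lower both folds. A polyploid value was missing on 4 of 9 arrays and a reference value on 2 of 6. The spot counts as called on both sides, but S/N was under 2 on every polyploid and reference array, and no difference between them is given.

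One spot, R11_C11_8, had S/N of at least 2 on all 9 arrays of the cln3 deletion and the reference strains and on no polyploid array. Its cln3 deletion level was higher than the polyploid level by at least 10-fold (adjusted p of the fitted difference = 1.4e-07). Genomic DNA reached S/N 2 on only 5 of 7 membranes there, so this spot too lies outside the rule for naming. A looser pattern, S/N of at least 2 on all 3 cln3 deletion arrays and on none of the 9 polyploid arrays, held at 10 spots, 9 of them called. Its reverse held at 4 spots, 2 of them called.

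**Figure D3:**
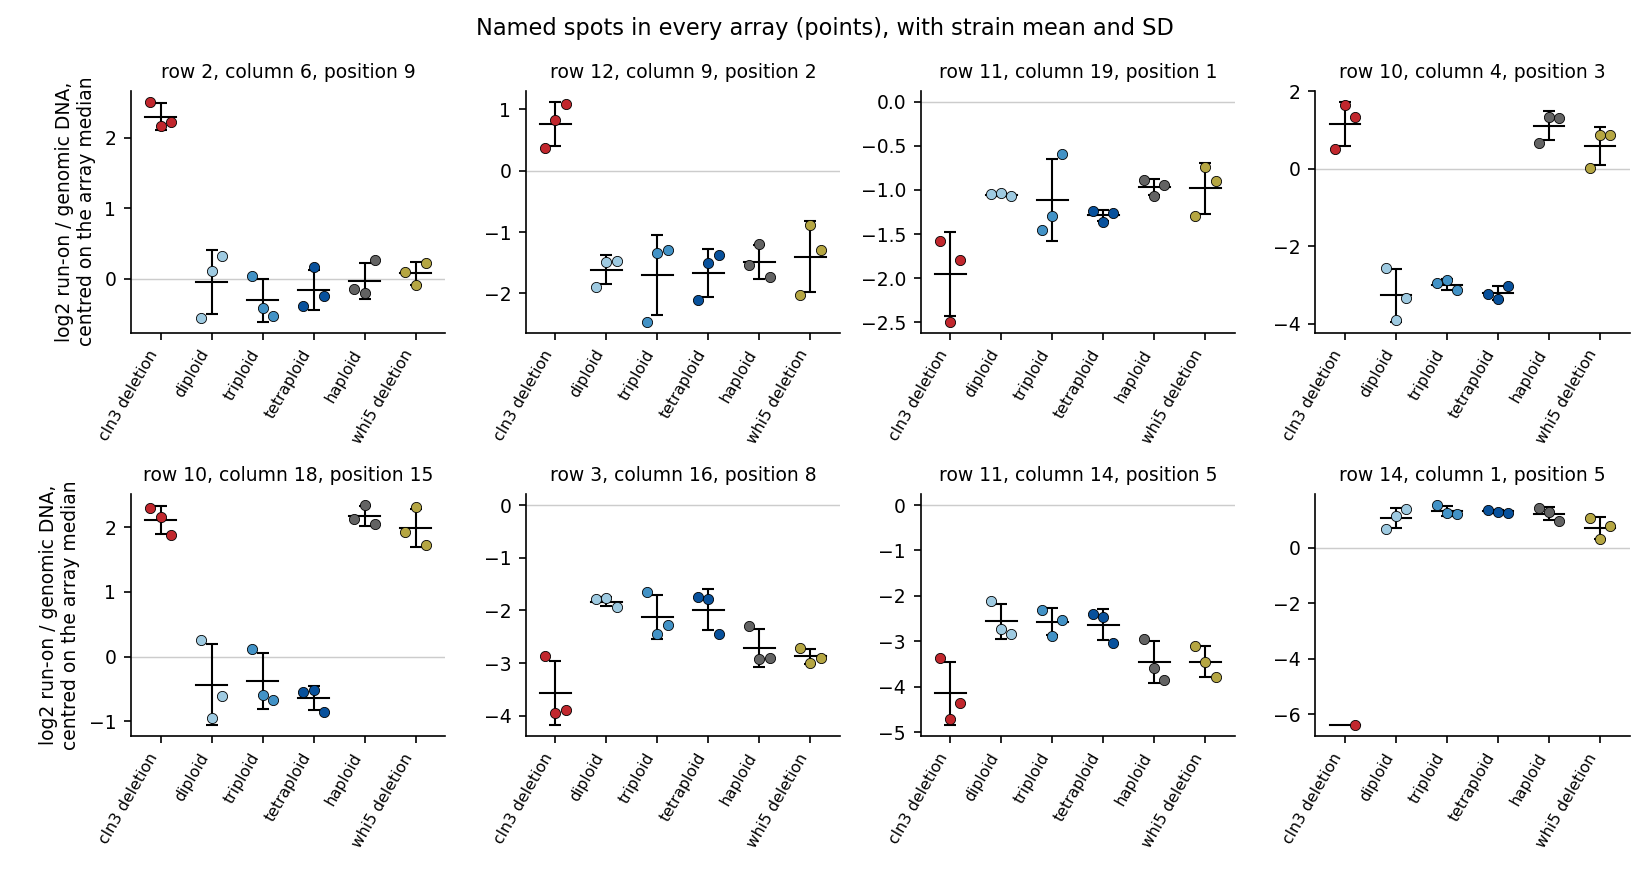
Run-on over genomic DNA signal as a centred log2 value (vertical axis) on every array with a value, for 8 named spots, by strain (horizontal axis). Points are arrays in the order of run-on 1, 2 and 3, and the bars give the strain mean and SD. R2_C6_9 and R12_C9_2 are high in the cln3 deletion alone, R10_C4_3 and R10_C18_15 are low in the 3 polyploids, and at R3_C16_8 and R11_C14_5 the haploid and whi5 deletion lie between the cln3 deletion and the polyploids. At R14_C1_5 the cln3 deletion has 1 value, since the other signals were 0.

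Arrays hybridised to the same membrane share its genomic DNA signal, which cancels in their difference. Run-on number does not cancel: each pair, here and below, joined arrays of different run-on numbers, by which the arrays separated first. The cln3 deletion met a reference strain on 3 membranes: the haploid on 13 and 14 and the whi5 deletion on 15. On each of them the 42 higher spots of the cln3 deletion side were all higher in the cln3 deletion, with median log2 differences of 0.96, 1.07 and 1.5. The 56 higher spots of the polyploid side had smaller medians in the same differences, -0.01, 0.21 and 0.18, against -0.01, -0.01 and 0.00 over all tested spots. Of the 56, 28, 44 and 38 were above 0, so on membranes 14 and 15 most leaned upward. Of all tested spots 49.6%, 48.9% and 49.9% were above 0.

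The polyploids met a reference strain 6 times, and there the 2 sets changed places. The 56 spots of the polyploid side were all lower in the polyploid than in the whi5 deletion in the diploid pairs on membranes 16 and 17 and in the tetraploid pair on 17, with medians of -1.09, -1.18 and -1.19. Against the haploid the medians were -1.17 (55 of 56 lower) in the triploid and -1.06 (53 of 55) in the tetraploid on membrane 12, and -1.20 (55 of 56) in the triploid on membrane 13. The 42 spots of the cln3 deletion side had medians from -0.23 to 0.17 over these 6 pairs. The 11 lower spots of the polyploid side were less even: 10, 11 and 11 were higher in the polyploid than in the whi5 deletion, while 8 and 7 were higher than in the haploid on membrane 12 and 11 on membrane 13. These are the arrays the spots were called on, so the pairs describe how even the differences were and are not a separate test.

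**Figure D4:**
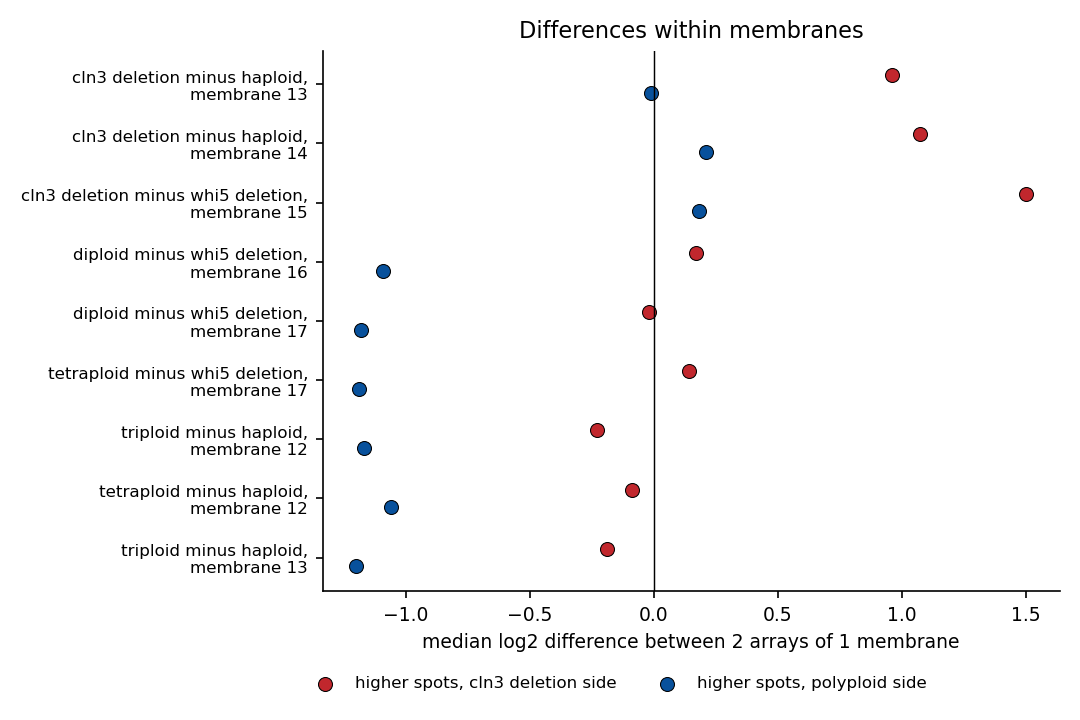
Median log2 difference (horizontal axis) between 2 arrays of 1 membrane, for each pair of a cln3 deletion or polyploid array with a haploid or whi5 deletion array (vertical axis). The 2 arrays of each pair differ in run-on number. Red points are the higher spots of the cln3 deletion side, which lie between 0.96 and 1.5 in the 3 pairs of the cln3 deletion and between -0.23 and 0.17 in the 6 polyploid pairs. Blue points are the higher spots of the polyploid side, which lie between -0.01 and 0.21 in the cln3 deletion pairs and between -1.20 and -1.06 in the polyploid pairs.

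On membrane 13, where the cln3 deletion (run-on 1) met the triploid (run-on 3), all 127 higher spots with a value were higher in the cln3 deletion, with a median of 1.16. All 28 lower spots with a value were lower there, with a median of -0.84. Over all tested spots 49.7% were higher in the cln3 deletion, with a median of 0. Both arrays entered the calls that chose these spots, so the agreement in direction was built in and is no test.

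S/N on the run-on arrays differed between called and tested spots, and it moved with the direction. S/N was at least 2 on all 12 arrays of the compared strains at 49.4% of the 158 called spots, against 64.5% of all tested spots. No polyploid array reached it at 19.4% of the higher spots, against 7.92% of all tested spots. No cln3 deletion array reached it at 34.5% of the lower spots, against 13.2% of all. The spots of each direction were chosen for a lower level in that group, so both shares are in part built in. At 13 called spots, 9 higher and 4 lower, neither the cln3 deletion nor the polyploids reached it on any array, and no fold is given for those. The median run-on signal was 63.6 at the higher and 94.4 at the lower spots, against 83.5 over all tested spots. On the centred log2 ratio, averaged over arrays, both sets lay low. Their medians were -0.81 at the higher and -0.68 at the lower spots, against 0 over all tested spots. Genomic DNA S/N was at least 2 on all 7 membranes at 44.3% of called spots, against 34.7% of all tested spots. The part of signal strength in the calls was not tested.

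Genomic DNA moved little with the higher spots. The median log2 difference in genomic DNA signal between the membranes of the cln3 deletion and those of the polyploids was 0.00 at the 129 higher spots and 0.08 at the 29 lower spots, against -0.01 over all tested spots. It lay above 0 at 20 of the 29 lower spots and 63 of the 129 higher spots, against 2898 of all 5934 tested spots. A higher genomic DNA signal lowers the ratio. Among the lower spots 5 of 29, R3_C16_8 and R11_C14_5 among them, had another called spot at the same position of a neighbouring block, and 0 of 29 shared a block with another. Of the 129 higher spots 8 had such a neighbour and 27 shared a block. The same counts for randomly placed spots were not worked out, so none of these is read as clustering. Block row 3 held the largest share of called spots, 5.05% of those tested, and position 7 the smallest, 0.783%. The part of genomic DNA and of membrane position in these calls was not tested.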

How the data were processed

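Genomic run-on and genomic DNA hybridisations were read from 36 deposited spot tables, 18 of each kind. The genomic DNA tables are copies of 7 hybridisations, 1 per membrane. Per the file headers, the density is an intensity per area, and the deposited background-subtracted intensity is that density less its background, with negative results set to 0, as a check of the columns showed. S/N, as deposited, is a score that sets signal over background. No source used here names the imaging program. The normalisation by MAD that the design text names is not applied in the deposited intensities.

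The log2 of run-on over genomic DNA intensity, both from 1 membrane, was centred on the array median. Spots were kept where some strain had run-on above 0 on its 3 arrays and all 7 membranes had genomic DNA above 0. This kept 5937 spots and left out 207, 191 of them for genomic DNA. Signals of 0 among the rest (240 values) were missing. All 18 arrays were fitted as strain means in limma 3.58.1 (lmFit, eBayes; R 4.3.3), with Benjamini-Hochberg adjusted p under 0.05 as a call. Polyploid strains weighed equally, as did the 2 reference strains. The fit was tested on simulated data. The random block used statmod 1.5.0. An "at least" fold gives each dim array the lowest signal with S/N of at least 2 on it, or its own signal if that is higher. That floor is taken over all spots of the array, so noise at a given spot can make the true limit of the fold lower.

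The comparison, the lists and the rules were chosen with earlier results of these data known. Named spots are the 2 largest per direction and side among called spots with no overlap between the 3 cln3 deletion and 9 polyploid values, genomic DNA S/N of at least 2 on all 7 membranes and run-on S/N of at least 2 on every array of the higher group. Spots outside that rule are said to be so. Tests of gene lists were not run, since no spot is paired with a gene.

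The names of the arrays are the sole source of run-on number and membrane. Same-numbered arrays of the cln3 deletion and a polyploid deviated together (correlation over 0.1) in all pairs but triploid run-on 3, so run-on number was not taken to pair them all. Alternatives were other scalings (MAD, quantile, cyclic loess), no use of genomic DNA, other filters, floored signals, density before background subtraction, blocks by run-on number or membrane, other variance settings, fewer strains, other references and leaving out each array. References that share no array, and the run-on 2 and 3 arrays alone, were chosen after seeing the data. No 2 run-on arrays held identical values.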

Additional observations from a re-analysis of the deposited data

Results flagged for a closer look

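Of 23 groups of values checked for a sample far from the others, 2 held one, and chance alone marks about 1 in 20 such groups. At R11_C19_1 triploid run-on 3 read -0.59 on the log2 scale, above the other 8 polyploid arrays, with a gap of 0.523 of the group's range. At R14_C1_5 diploid run-on 1 read 0.66, below the other 8 polyploid arrays, with a gap of 0.54 of the range.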

How the results depend on the processing

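Counts are given in the order of cln3 deletion against polyploids (158), cln3 deletion against the reference strains (106) and polyploids against the reference strains (202), then of the cln3 deletion side (46) and the polyploid side (67). With genomic DNA S/N of at least 2 on all membranes, which leaves 2062 spots, they were 85, 58, 119, 21 and 37. With membrane as a fixed block they were 61, 59, 123, 23 and 32. The correlations of same-numbered arrays over runs 1, 2 and 3 were 0.41, 0.11 and 0.20 with the diploid and 0.23, 0.27 and -0.12 with the triploid. With the tetraploid they were 0.44, 0.14 and 0.15. With run-on number as a replicate block the 3 counts of calls were 239, 150 and 356. Of the 239 spots 182 were higher and 57 lower, and 157 were among the 158. With both blocks the counts were 260, 460, 935, 88 and 108, and 8 spots differed among the polyploids, against 0 otherwise. The count for the cln3 deletion against the reference strains was 62 without genomic DNA, 67 on density without background subtraction, 63 with only the strains compared and 39 with the haploid alone as reference. The polyploid count was 99 with the haploid alone and 108 with the whi5 deletion alone. Without genomic DNA 24 spots lay on the cln3 deletion side, with only the strains compared 29, with the haploid alone 18 and with references that share no array 17 (cln3 deletion against the haploid). The cause was not tested, apart from the smaller number of spots or arrays in some of these settings.

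Leaving out 1 array gave 89 to 175, 46 to 93 and 123 to 243 calls, 21 to 49 and 46 to 70 spots on the sides, 0 among the polyploids, and a difference in overall level from -0.59 to -0.14 (exact permutation p from 0.158 to 0.764). With membrane as a random block (correlation 0.28) the 3 counts were 170, 158 and 303. The number of spots that moved to the opposite side was 2 with the haploid alone as reference, 1 each with cyclic loess, density without background subtraction and the references that share no array (cln3 deletion against the haploid), and 0 in all other settings. Of 962 values of the named spots under an alternative, 893 stayed on their side of the threshold, 64 lost a call, 5 gained one and 0 changed sign with a call. S/N limits the dim spots: 29 called spots had S/N under 2 on all polyploid arrays and 20 on all cln3 deletion arrays.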

Other observations

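A few spots outside the naming rule, chosen after their values were seen, showed other arrangements of the strains. At R11_C6_6 both the cln3 deletion and the polyploids lay below the reference strains, unequally: the log2 ratio was -0.63, -0.60 and -1.29 on the cln3 deletion arrays, against -2.12 to -1.42 on the polyploid arrays and 1.49 to 2.25 on the reference arrays. The log2 difference from the reference strains was -2.79 in the cln3 deletion and -3.71 in the polyploids (limma, adjusted p = 7.6e-07 and 2.6e-10). That between the cln3 deletion and the polyploids was 0.92 (adjusted p = 0.01) and lost its call without cln3 deletion replicate 1 or 2 (adjusted p = 0.086 and 0.11). It was also lost in 3 of 17 other settings (adjusted p up to 0.29). Both groups were near the floor there, with S/N of 1.77 to 3.15 on the cln3 deletion arrays and 1.29 to 2.61 on the polyploid arrays. S/N reached 2 on 2 of 3 and 2 of 9 of them, so their inequality is weakly measured.

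R12_C18_1 was the single lower spot called on both sides, but its cln3 deletion side is weakly placed. It read -2.09, -1.85 and -1.85 on the cln3 deletion arrays, all with S/N under 2, against 0.31 to 0.89 on the polyploid arrays and -1.52 to -0.63 on the reference arrays. It was at least 2.9-fold lower in the cln3 deletion than in the polyploids (adjusted p of the fitted difference = 1.1e-07). Genomic DNA was above S/N 2 on 2 of 7 membranes. The reference arrays reached S/N 2 on 2 of 6, so no fold is given against them. The call of the cln3 deletion against the reference strains was lost in 4 of 17 settings (adjusted p up to 0.82) and without cln3 deletion replicate 1 (adjusted p = 0.056). R8_C8_11 was the single spot above S/N 2 on all 9 polyploid arrays and on no other array, yet its log2 ratio in the cln3 deletion differed from that in the polyploids by -0.15 (adjusted p = 0.82).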
